A study of Mus musculus with 8 samples.

Results

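The histone cluster genes are the genes that make the bulk of the cell's histones during DNA replication. They were taken from the table of total RNA as every symbol of the form Hist1h to Hist4h, followed by a class, with at least 20 counts summed over its 4 libraries. Of 24420 symbols in that table, 68 had such a name, and 57 reached the minimum. These 57 held 6 genes for the linker histone H1, 14 for H2A, 16 for H2B, 10 for H3 and 11 for H4. By cluster, 47 belonged to Hist1 on chromosome 13, 6 to Hist2 on chromosome 3, 3 to Hist3 on chromosome 11 and 1 to Hist4 on chromosome 6. The table of polysomal RNA listed 40 of the 57.

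The 8 libraries came from mouse embryos at E11.5, labelled as brain and, in the growth protocol, as neural tube. Embryos were wildtype, called control in that protocol (WT), or Lin28a-/-;b-/- (dKO), a knockout of both genes for the Lin28 RNA-binding proteins. Protein was not measured here. Total RNA and polysomal RNA, the RNA bound by several ribosomes, were each sequenced in 2 replicates per genotype. The labels do not name a strain, litter or embryo for any library, so p-values measure the spread between these libraries, which may be technical.

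Replication-dependent histone genes are unusual in several ways. Most have no intron, and their mRNAs end in a short stem-loop rather than in a poly(A) tail. The stem-loop is bound by the stem-loop binding protein Slbp, and the mRNAs are made and kept mainly in S phase. H2A, H2B, H3 and H4 form the core of the nucleosome, while H1 binds the DNA between cores. In the neural tube, progenitor cells that still divide carry most of this expression. Selection for poly(A) tails, which would bear on these mRNAs, is not described in the labels.

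The stem-loop is shown first because it sets these genes apart from other coding genes. The motif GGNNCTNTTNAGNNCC was searched on the sense strand after the annotated stop codon, in GENCODE M21 on GRCm38. It was found in 35 of the 57 members, 22 to 55 bases after the stop codon. Among the 40 members with at least 50 annotated bases after the stop, 35 had it, and among the other 17, 0 had it. These 17 have fewer bases there or, for the pseudogene Hist3h2bb-ps, no annotated stop codon to search after. Of 18619 other coding genes, 40 (0.215%) held the motif. Below, the 16 bases of the motif are in capitals, in mRNA sense.
Hist1h1c: aaaaGGCTCTTTTCAGAGCCacca
Hist1h2ab: caaaGGCTCTTTTCAGAGCCaccc
Hist1h2bb: caaaGGCTCTTTTAAGAGCCaccc
Hist1h3e: aaacGGCTCTTTTAAGAGCCacct
Hist1h4d: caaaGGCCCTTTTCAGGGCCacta
Hist1h4b: aaaaGGTCCTTTTCAGGACCactc
Hist1h4i: taaaGGCCCTTTTTAGGGCCacca
These lie on GRCm38 at chr13:23739508-23739531 (Hist1h1c, plus strand), chr13:23751568-23751591 (Hist1h2ab, plus), chr13:23747199-23747222 (Hist1h2bb, plus), chr13:23561899-23561922 (Hist1h3e, minus), chr13:23581946-23581969 (Hist1h4d, plus), chr13:23757362-23757385 (Hist1h4b, plus) and chr13:22040962-22040985 (Hist1h4i, minus), each in the exon after the coding sequence. In H1, H2A, H2B and H3 the stem read GGCTC in every member with a match. In H4 it read GGCCC in 7 members and GGTCC in 2.

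Promoter sequence differed between the classes as well. RefSeq promoter windows (GRCm38.p6, from 250 bases before to 50 after the start) matched 51 of the 57 members. Each of 4 motifs was searched on both strands, and none of them contains another. CCAAT, the core of the site bound by NF-Y, was in 86.3% of members against 41.1% of 27025 genes. It was in every matched H1, H2A, H2B and H3 window but in 3 of 10 for H4. TATAAA was in 60.8% of members against 15.7% of all genes. The octamer ATTTGCAT, known from H2B promoters as a site of Oct1, was in 7 of 14 H2A and 6 of 13 H2B windows, in no window of the other classes, and in 1.97% of all genes. AAACACA, known as the H1 box, was in 5 of 6 H1, 2 of 14 H2A, 1 of 13 H2B, 0 of 8 H3 and 0 of 10 H4 windows, and in 8.22% of all genes. Upstream windows of 130 bases from 3 H1 genes and 1 H2B gene show these motifs in capitals, including matches on the opposite strand.
Hist1h1b: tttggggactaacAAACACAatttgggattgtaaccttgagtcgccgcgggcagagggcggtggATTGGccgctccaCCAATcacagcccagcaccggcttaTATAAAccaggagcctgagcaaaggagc
Hist1h1c: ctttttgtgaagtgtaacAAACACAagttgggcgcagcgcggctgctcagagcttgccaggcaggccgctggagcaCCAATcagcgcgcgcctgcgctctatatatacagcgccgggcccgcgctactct
Hist1h1e: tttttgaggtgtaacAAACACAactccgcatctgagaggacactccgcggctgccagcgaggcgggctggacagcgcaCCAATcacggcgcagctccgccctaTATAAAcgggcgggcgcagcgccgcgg
Hist1h2bb: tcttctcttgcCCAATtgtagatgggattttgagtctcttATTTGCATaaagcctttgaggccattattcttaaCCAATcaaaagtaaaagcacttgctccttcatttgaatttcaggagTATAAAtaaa
Their positions on GRCm38.p6 are chr13:21780626-21780755 (Hist1h1b, minus strand), chr13:23738677-23738806 (Hist1h1c, plus), chr13:23622559-23622688 (Hist1h1e, minus) and chr13:23746604-23746733 (Hist1h2bb, plus). A further shared layout is the head-to-head pair, in which neighbouring genes start back to back. There were 10 such pairs with starts 172 to 301 bases apart, each of an H2A gene with an H2B gene. Promoter windows of paired genes can overlap, so the same motif match can count in both H2A and H2B.

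The total RNA columns summed to between 15060560 and 15768767 counts. In the dKO, Lin28a had 103 and 120 counts against 1151 and 1091 in WT, and Lin28b had 755 and 855 against 2014 and 1852. All 10 neural progenitor markers and all 10 neuronal markers were detected in total RNA. Of the former 5 fell and 1 rose, and of the latter 4 fell and 3 rose. Over all genes tested, 16% fell and 14.7% rose (edgeR adjusted p under 0.05). Mesenchymal markers fell in 3 of 8 cases and endothelial ones in 0 of 5, and none rose. Of the 10 erythroid markers, Hba-a1, Hba-a2 and Hbb-bt were at 0, and 6 of 7 tested were lower in dKO. Their summed level was 4331 to 4397 CPM (counts scaled to library size) in WT and 2637 to 2638 in dKO. Macrophage markers, of which 1 of 5 fell, summed to between 35.5 and 37.3 CPM in WT and to between 27.7 and 31.8 in dKO. The part of blood or macrophage content in the histone results was not tested.

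Histone genes were more often lower than higher in dKO total RNA, and the H1 class had the lowest median. Of 56 members tested, 35 fell, 2 rose and 19 did not pass an adjusted p of 0.05 (edgeR's quasi-likelihood test, adjusted over 14594 genes). Over all genes tested, 16% were called lower and 14.7% higher, 30.7% in either direction. The median member was lower by 1.14-fold (log2 fold change -0.19), against a median of 0.0030 over all genes. In 38 members both dKO libraries were below both WT libraries, in 5 both were above and in 13 the genotypes overlapped. Over all genes, 31.2% had dKO below WT without overlap and 31% had it above. In these bulk libraries, fewer cells of a type and less RNA per cell cannot be told apart.

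Added up in CPM scaled by TMM, the 57 members made 18986 ± 203 CPM in WT and 16024 ± 326 in dKO (SD, n = 2 each), a change of -15.6%. H1 genes summed to 4825 ± 91.1 CPM in WT and 3494 ± 26.3 in dKO, a change of -27.6%. H2A genes went from 1868 ± 216 to 1585 ± 188 CPM, and here the replicates were so far apart that the genotypes overlapped. That spread came largely from Hist1h2ak. Its replicate 2 was 2.5 times replicate 1 in WT and 2.38 times in dKO. H2B genes went from 3903 ± 12.4 to 3493 ± 46.3 CPM, a change of -10.5%. H3 genes went from 2651 ± 177 to 2260 ± 52.8 CPM, and H4 genes, the class with the highest sum, from 5738 ± 85.4 to 5192 ± 13.3, a change of -9.52%. Except in H2A, both dKO libraries lay below both WT libraries in each class. With 2 libraries a genotype no test was made of these sums.

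**Figure D1:**
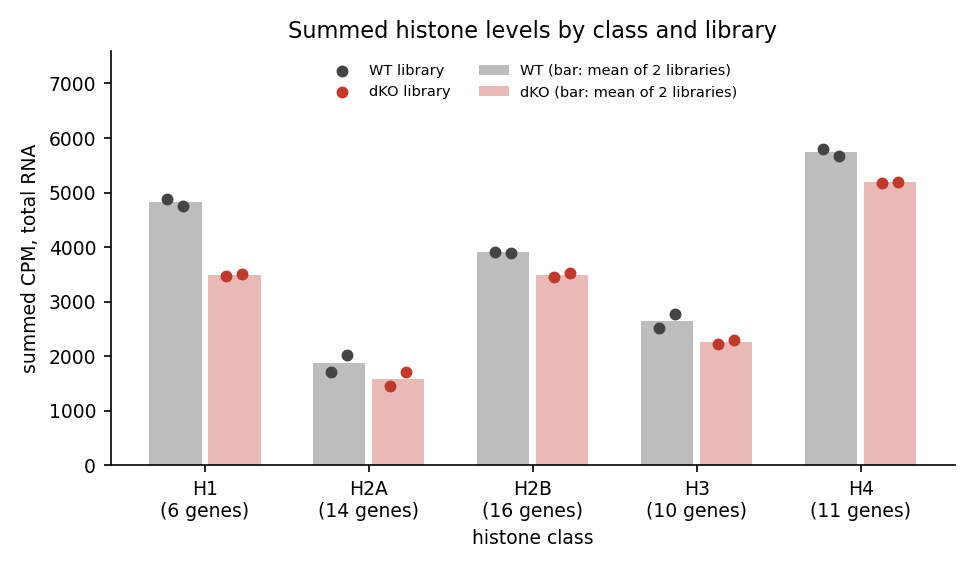
Summed CPM of the histone genes of each class in total RNA (y axis) for the 5 classes (x axis). Points are single libraries and bars the means of 2. H1 shows the widest gap between WT (4825) and dKO (3494). In H2A the points of the genotypes overlap, with a spread largely from Hist1h2ak.

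All 5 somatic H1 genes fell, by amounts close to each other. WT counts of Hist1h1a were 18686 and 17263, and dKO counts 12742 and 12705. WT counts of Hist1h1b were 12902 and 12535, and dKO counts 8965 and 8838. Both dKO libraries were well below both WT libraries, and the replicates of each genotype lay close together. The log2 fold changes were -0.52 ± 0.02 (SE) for Hist1h1a (edgeR adjusted p = 3.84e-113) and -0.53 ± 0.03 for Hist1h1b (edgeR adjusted p = 1.02e-87). Hist1h1c, with counts of 17463 and 16263 in WT, and of 12434 and 12537 in dKO, fell by 0.45 ± 0.02 on the log2 scale. Hist1h1d, with 10659 and 9912 against 7838 and 7837, and Hist1h1e, with 17030 and 15933 against 12607 and 12573, each fell by 0.41. These 5 encode the linker histones of dividing somatic cells. Hist1h1t, the testis form, had WT counts of 31 and 41 and dKO counts of 26 and 24. Its log2 fold change was -0.55 ± 0.45 and did not pass the test (edgeR adjusted p = 0.386). The median log2 fold change of the class was -0.49.

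Of 13 H2A genes tested, 6 fell, 0 rose and 7 did not pass, with a median log2 fold change of -0.18. Hist3h2a, which encodes an H2A outside the large cluster, had WT counts of 8627 and 8111 and dKO counts of 7259 and 7098. It fell by 0.24 ± 0.03 on the log2 scale, with no overlap between the genotypes. Hist1h2ab had WT counts of 3680 and 3312 and dKO counts of 2678 and 2594 and fell by 0.43 ± 0.05 (edgeR adjusted p = 7.49e-19). Hist1h2ac, with 1362 and 1252 against 946 and 952 counts, fell by 0.48 ± 0.07. In all 3 the dKO libraries were the lower ones and agreed closely. Hist1h2ai had 393 and 274 counts in WT but 162 and 263 in dKO, with a log2 fold change of -0.67 ± 0.14. That call was lost without dKO replicate 1 (log2 fold change -0.35, edgeR adjusted p = 0.134) and without WT replicate 1 (-0.42, adjusted p = 0.0698). The highest of the 7 that did not pass was Hist1h2ah, with a log2 fold change of 0.16 ± 0.10.

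The most abundant H2A gene by mean CPM after Hist3h2a, Hist1h2ak, split by replicate rather than by genotype. It had 3654 counts in WT 1, 8801 in WT 2, 3082 in dKO 1 and 7245 in dKO 2. The second replicate was 2.5 times the first in WT and 2.38 times in dKO. Hist1h2bc, an H2B gene, showed the same split, with 1378, 2812, 1137 and 2603 counts and ratios of 2.12 and 2.32. Both are counted among the members that fell, at log2 fold changes of -0.30 and -0.19. Without dKO replicate 1 the value of Hist1h2ak became 0.20, and without WT replicate 2 it became 0.51. These 2 genes share no promoter pair: Hist1h2ak starts head to head with Hist1h2bn, and Hist1h2bc with Hist1h2ac. Of the 57 members, 48 had replicates within 1.25-fold in both genotypes.

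In total RNA the estimated prior degrees of freedom were infinite. The fit thus gave each gene the spread of a trend over abundance rather than its own. A gene with discordant replicates could therefore still be called, and the SE given for it in total RNA does not carry that discordance. A robust estimate of the spread, added after the data were seen, lets such a gene keep its own. With it 32 members were lower and 2 higher, against 16.1% of all genes called lower. The calls lost were Hist1h2ak (edgeR robust adjusted p = 0.872), Hist1h2bc (0.910), Hist1h2bh (0.461) and Hist1h2bp (0.486), and Hist4h4 was gained (0.0498). DESeq2 called 27 members lower and 2 higher.

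Of 16 H2B genes, 10 fell, 1 rose and 5 did not pass, with a median log2 fold change of -0.18. Hist2h2bb was the member with the most counts, 23673 and 22368 in WT and 20066 and 20364 in dKO. It fell by 0.21 ± 0.02 on the log2 scale (edgeR adjusted p = 2.87e-25) with no overlap. It also had the highest level per kilobase of coding sequence, 3921 CPM per kb in WT and 3398 in dKO. Its annotated sequence lies wholly within the overlapping models Gm20628 and Gm42743, so counts of these genes could have been split or shared. Hist1h2bb had WT counts of 6299 and 5832 and dKO counts of 6246 and 5880, with a log2 fold change of -0.02 ± 0.03 that did not pass (edgeR adjusted p = 0.716). Hist1h2bm, with 5934 and 5576 against 5515 and 5363 counts, changed by -0.10 ± 0.03 (edgeR adjusted p = 0.0164). That call was lost with DESeq2 (adjusted p = 0.0514), with an offset for GC content (0.0772) and in 3 of the 4 fits that left out a library.

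A single library set the value of 2 further H2B genes. Hist1h2bp had 297 counts in WT 1 but 46 in WT 2 and 53 and 45 in dKO. In CPM, WT 1 stood at 18.9, 5.61 times the next highest library at 3.37. The log2 fold change was -1.81 ± 0.24 with all 4 libraries and 0.04 without WT replicate 1 (edgeR adjusted p = 0.966). Hist1h2bh had 2182 and 1878 counts in WT, 1636 in dKO 1 and 704 in dKO 2, which was 0.436 of the next lowest by CPM. Its log2 fold change was -0.82 ± 0.06 with all 4 and -0.34 without dKO replicate 2 (edgeR adjusted p = 7.49e-05). The largest fall in the family therefore rested on 1 library. Hist3h2bb-ps, annotated as a pseudogene, rose from 326 and 371 counts in WT to 671 and 619 in dKO, with a log2 fold change of 0.87 ± 0.11 (edgeR adjusted p = 1.38e-13). It starts head to head with Hist3h2a, which fell.

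**Figure D2:**
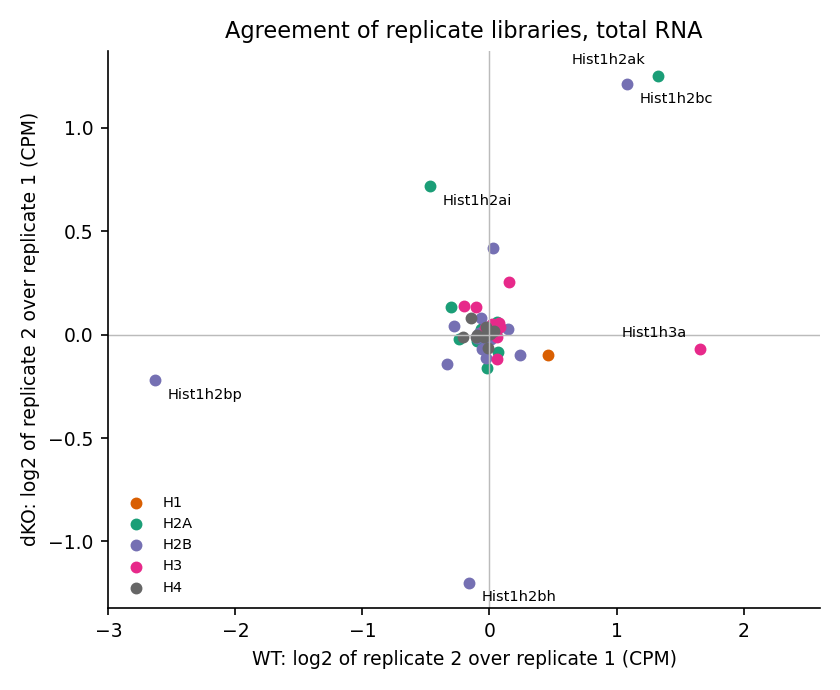
Log2 ratio of replicate 2 to replicate 1 in CPM, for each of the 57 members, in WT (x axis) and dKO (y axis), coloured by class. Most genes sit at the centre; Hist1h2ak and Hist1h2bc are high on both axes, Hist1h2bp and Hist1h3a are off centre in WT only and Hist1h2bh in dKO only.

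H3 genes fell in 6 of 10 cases and none rose, with a median log2 fold change of -0.18. Hist1h3e, the most abundant, had WT counts of 12068 and 12283 and dKO counts of 10551 and 10677 and fell by 0.22 ± 0.03. Hist1h3b had 3278 and 3292 in WT and 2423 and 2204 in dKO. It fell by 0.53 ± 0.05 on the log2 scale (edgeR adjusted p = 3.24e-26), and both dKO libraries were below both of WT. Hist1h3g, with 4019 and 4081 against 3223 and 3312, fell by 0.33 ± 0.04. Hist1h3d, with 4810 and 5151 against 3844 and 4526, fell by 0.27 ± 0.04, a call lost with DESeq2 (adjusted p = 0.166). Hist1h3c, with 5163 and 4860 against 4799 and 4850 counts, had a log2 fold change of -0.07 ± 0.04 and did not pass. Hist1h3a was discordant in WT, with 1108 and 3357 counts against 2251 and 2118 in dKO. Its dKO values lay between those of the WT replicates.

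H4 genes fell in 8 of 11 cases and 1 rose, with a median log2 fold change of -0.13. Hist1h4d had WT counts of 14763 and 14258 and dKO counts of 13246 and 13102 and fell by 0.16 ± 0.02. Hist1h4h had 14105 and 13320 in WT and 11989 and 12145 in dKO and fell by 0.20 ± 0.02 (edgeR adjusted p = 2.39e-15). Hist2h4 had 12024 and 11259 in WT and 10586 and 10380 in dKO and fell by 0.17 ± 0.03. In these 3 the genotypes did not overlap. Per kilobase of coding sequence, Hist1h4d (3019 CPM per kb), Hist1h4h (2852) and Hist2h4 (2421) had the highest WT levels after Hist2h2bb. Counts may include reads outside the coding sequence, and the annotated transcripts are 1138, 470 and 1630 bases long. The order therefore depends on the length used. Hist1h4i went the other way, from 1877 and 1633 counts in WT to 2155 and 2253 in dKO, with a log2 fold change of 0.31 ± 0.06 (edgeR adjusted p = 4.63e-07). Hist1h4i encodes H4 like the others, and its stem-loop is among those printed above.

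**Figure D3:**
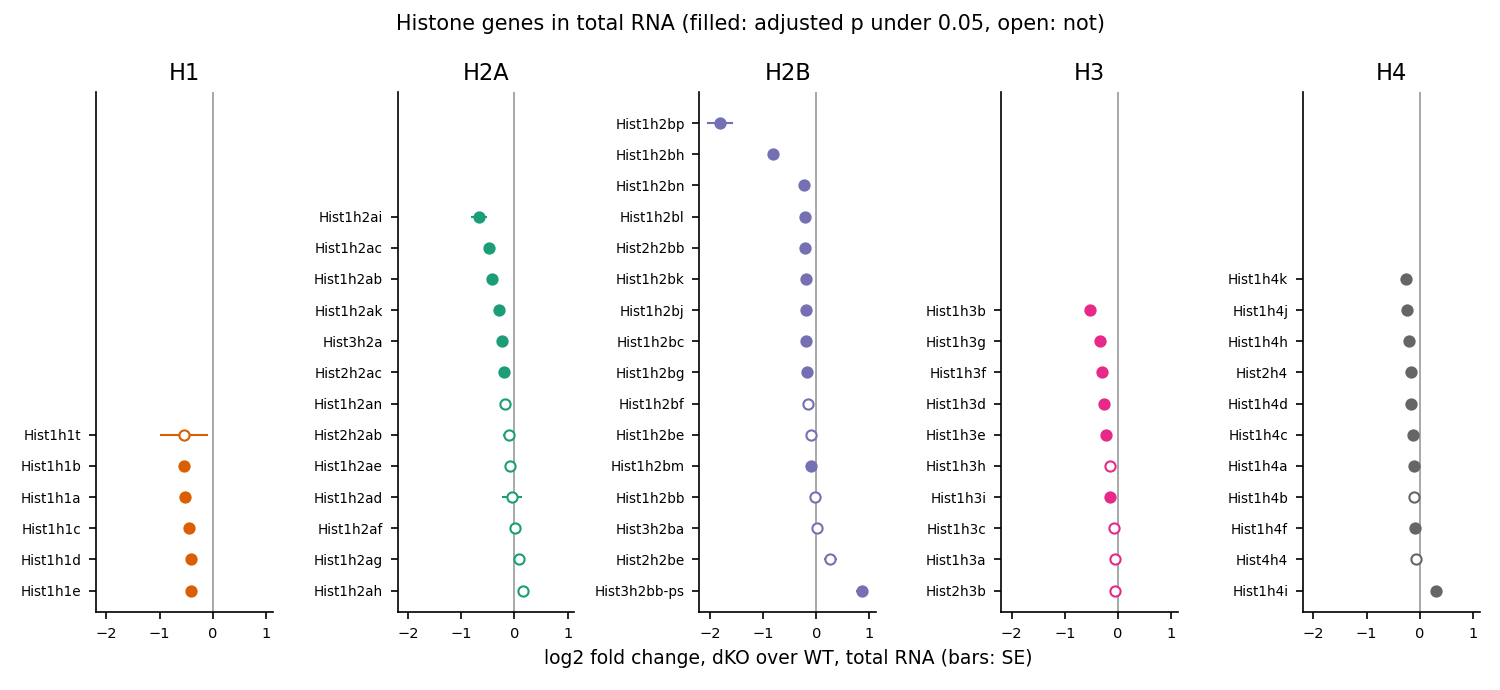
Log2 fold change of dKO over WT in total RNA (x axis) for the 56 members tested, by class, with SE bars; filled points pass an adjusted p of 0.05. All 6 H1 genes lie left of 0, and the points furthest out are Hist1h2bp at -1.81 and Hist3h2bb-ps at 0.87.

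Many members share stretches of sequence, which limits how reads can be assigned to single genes. For each annotated transcript, the share of 50-base windows found in no other annotated gene was computed. The median was 54.2% over members, and 24 of 57 were under 50%. By class the median was 98.9% in H1, 38.6% in H2A, 55.5% in H2B, 42.8% in H3 and 71.1% in H4. In coding sequence alone it was 89.1% in H1 but between 16.1% and 32.3% in the core classes. Pairs of H3 members had a median identity of 97.6% over the coding sequence, and H4 pairs 93.9%. The 3 genes below, which share most of the start of the H2B coding sequence, show how few bases can separate them. Bases 1 to 90 of the coding sequence are given in GENCODE M21, with the 5 positions that vary among the 3 in capitals. The stretch was picked because no other of 90 bases has more positions that vary among them.
Hist1h2bg: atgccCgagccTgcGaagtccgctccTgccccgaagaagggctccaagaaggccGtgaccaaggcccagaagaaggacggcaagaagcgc
Hist1h2bh: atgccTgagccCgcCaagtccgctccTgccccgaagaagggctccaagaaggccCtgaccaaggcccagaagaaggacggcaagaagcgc
Hist1h2bc: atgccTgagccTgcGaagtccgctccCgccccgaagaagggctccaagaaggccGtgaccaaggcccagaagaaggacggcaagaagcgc

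Of the 68 histone symbols, 9 were at 0 in every total RNA library, namely Hist1h2ao, Hist1h2ap, Hist1h2bq, Hist1h2br, Hist1h4m, Hist2h2aa1, Hist2h2aa2, Hist2h3c1 and Hist2h3c2. Their median share of unique windows was 0.166%, with a range of 0 to 36.5%, and in coding sequence all 9 had 0%. Hist2h3c1 overlaps the model Gm20634, and with overlapping genes set aside its share was 65.3%. Some members with counts had 0% in coding sequence as well, among them Hist1h2ad, Hist2h2bb and Hist3h2a. With overlapping genes set aside, the share over the whole transcript was 32.9% in Hist1h2ad, 100% in Hist2h2bb and 98% in Hist3h2a. Hist3h2a overlaps Trim17 and the model Gm44313, so its counts too could have been split or shared. Hist1h2ao and Hist1h2ap have the same coding sequence, as do Hist1h2bq and Hist1h2br, and Hist2h2aa1 and Hist2h2aa2. Hist1h4m matches Hist1h4n, which had 2, 5, 3 and 2 counts. A gene listed at 0 here need not be silent, since its reads may have matched several places or an overlapping gene. The labels do not describe how such reads were handled. The last 90 coding bases up to the stop codon, positions 220 to 309, are given for this pair and for Hist1h4i, the H4 gene that rose, with the 6 varying positions in capitals. This stretch too was picked because no other of 90 bases has more varying positions.
Hist1h4m: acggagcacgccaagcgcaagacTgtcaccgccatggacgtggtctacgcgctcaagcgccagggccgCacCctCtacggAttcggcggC
Hist1h4n: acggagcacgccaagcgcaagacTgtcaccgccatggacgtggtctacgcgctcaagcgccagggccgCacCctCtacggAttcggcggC
Hist1h4i: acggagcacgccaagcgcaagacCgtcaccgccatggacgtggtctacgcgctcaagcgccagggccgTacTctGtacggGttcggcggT
The other symbols under the minimum were Hist1h2ba (1, 2, 1 and 0 counts) and Hist1h4n. Hist1h2aa sat just inside it, at 4, 4, 6 and 6 counts in WT and dKO, and had too few counts to be tested. Among the members with discordant replicates named above, the share of unique windows was 81.2% in Hist1h2bh, 69.4% in Hist1h2bc, 54.7% in Hist1h2bp, 50.5% in Hist1h3a, 43.0% in Hist1h2ak and 9.88% in Hist1h2ai. The part of shared sequence in their values was not tested.

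**Figure D4:**
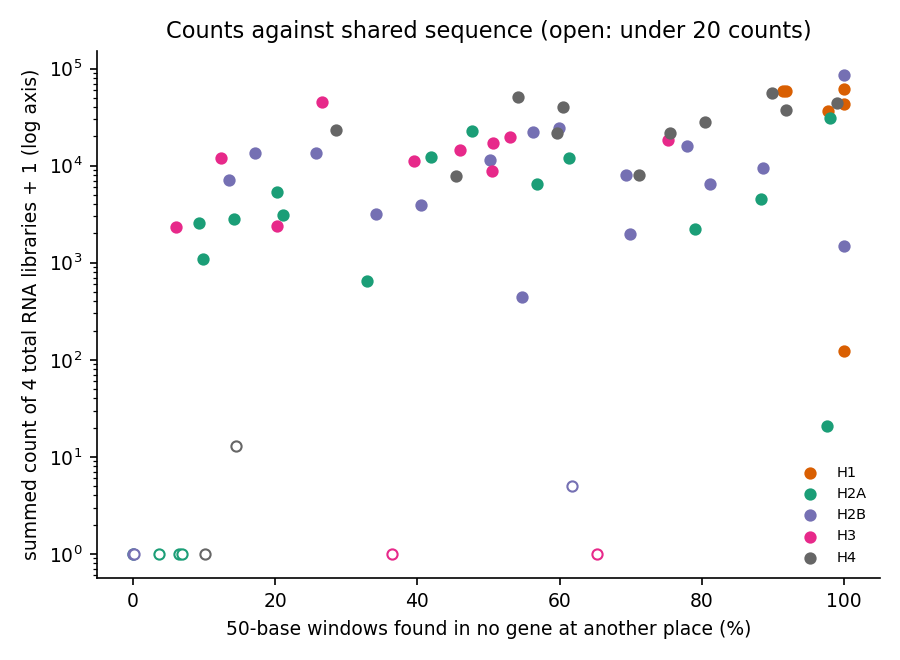
Summed count of the 4 total RNA libraries plus 1 (y axis, log scale) against the share of 50-base windows found in no gene at another place (x axis), for the 68 histone symbols by class. Open points are under 20 counts; of the symbols at 0, Hist2h3c1 (65.3%) and Hist2h3c2 (36.5%) lie furthest right and the rest at 10.2% or less, while members spread over the whole x axis.

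The genes that handle histone mRNA and protein were described from lists. Counts for this and the following lists stand beside 16% called lower and 14.7% called higher over all genes tested. Of 30 tested genes for histone mRNA processing and decay, 12 fell and 0 rose in total RNA, with a median log2 fold change of -0.09. Snrpb, a core protein of spliceosomal RNPs, fell from 3858 and 3915 counts to 2798 and 2786 (log2 fold change -0.50 ± 0.04). Cpsf3, the nuclease that cuts histone pre-mRNA, fell from 901 and 735 to 516 and 495 (-0.71 ± 0.10). Ncbp1, a cap-binding protein, changed by -0.35 ± 0.06 and Cpsf2 by -0.34 ± 0.06. Slbp, named after its values were seen, had counts of 590 and 548 in WT, and of 384 and 408 in dKO and fell by 0.54 ± 0.11 (edgeR adjusted p = 1.03e-05). Npat, the coactivator of histone genes, also named afterwards, had 1103 and 1146 in WT and 1136 and 1193 in dKO and did not pass (0.03 ± 0.07).

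Of 26 histone chaperones and related factors, 19 fell and 0 rose, with a median log2 fold change of -0.29. Anp32e, a chaperone of H2A.Z, went from 6512 and 6397 counts in WT to 4796 and 4911 in dKO (log2 fold change -0.43 ± 0.03). Ssrp1, a subunit of FACT, went from 3266 and 3075 to 2315 and 2334 (-0.47 ± 0.05). Npm1 changed by -0.35 ± 0.04 and Set by -0.31 ± 0.03. Of 51 genes of S phase and replication, 33 fell and 2 rose, with a median of -0.33. Rrm2, a subunit of ribonucleotide reductase, had counts of 4445 and 4468 in WT, and of 2870 and 2990 in dKO (-0.62 ± 0.04). The helicase subunits Mcm6 (-0.54 ± 0.05) and Mcm2 (-0.68 ± 0.08) and the ligase Lig1 (-0.95 ± 0.11) fell too. The 2 that rose were E2f1 (0.26 ± 0.05) and Mki67 (0.21 ± 0.04), named after their values were seen. The part of cycling in the histone values was not tested.

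Replacement and orphan histone genes, whose mRNAs mostly carry poly(A) tails and are made outside S phase as well, had no common direction. Of 11 tested, 4 fell and 3 rose, with a median log2 fold change of -0.09. H3f3b, which encodes H3.3, had counts of 8148 and 8008 in WT, and of 9644 and 9302 in dKO and rose by 0.21 ± 0.03. H2afx, the H2A.X gene, fell from 9547 and 9213 to 8357 and 8352 (-0.19 ± 0.03). H2afy, for macroH2A, changed by -0.24 ± 0.03, and H1fx, an orphan linker histone, by -0.27 ± 0.04.

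The polysomal table listed 5804 genes, and its calls are conditional on how they were picked, which the labels do not describe. Sums over what it lists, 14874143 and 15414712 for WT against 3740980 and 5164982 for dKO, are no library depths. Of its 5777 tested genes 99.7% were called between the genotypes, 52.5% lower and 47.2% higher. All 40 listed members were called as well, 24 lower and 16 higher, so the count says nothing particular about them. In raw counts the dKO sum was below the WT sum in each of the 40. Among 5441 genes averaging 100 counts or more, the raw log2 ratios left an empty interval from -2.04 to -1.71. On its lower side lay 2927 of these genes and on its upper side 2514. Of all 40 members, 24 lay on the lower side, with ratios of -5.29 to -2.19, and 16 on the upper, from -1.53 to -0.10. The outermost on either side, Hist1h2ad and Hist1h2bp, averaged under 100 counts. Log2 fold changes below use TMM over the listed genes and so place 0 near this interval. RLE scaling moved the median of all listed genes by 0.24. It left 24 members below 0 and 16 above, but 19 of them were then called lower, and 20 with DESeq2.

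All 4 listed H1 genes were above the interval, while each of the other classes had members on both sides. Differences between classes were not tested. Hist1h1a had polysomal counts of 34781 and 35198 in WT, and of 16643 and 21595 in dKO, a TMM log2 fold change of 1.07 ± 0.07 (edgeR adjusted p = 0.000128). Hist1h1c had 31069 and 32347 against 15721 and 20211 (1.12 ± 0.08), Hist1h1d 21324 and 22110 against 7800 and 11166 (0.73 ± 0.05), and Hist1h1e 25522 and 25812 against 7139 and 10669 (0.39 ± 0.05). Of 11 H2B genes 9 were below the interval. Hist2h2bb, the member with the highest polysomal counts, had 51157 and 52734 in WT and 7579 and 11105 in dKO (-0.55 ± 0.05). The 2 H2B genes above it, Hist1h2bh and Hist1h2bp, were those with a single discordant total RNA library.

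Of 10 H2A genes 7 lay below, all of the Hist1 cluster. The 3 above were Hist2h2ab, Hist2h2ac and Hist3h2a. Hist3h2a had WT counts of 17422 and 17603 and dKO counts of 5359 and 7379 (0.47 ± 0.06). Of 6 H3 genes 4 lay above, and their class median of 0.47 turned to -0.65 with an offset for GC content. Among the 4 was Hist1h3e with 19634 and 20306 against 8768 and 10699 counts (0.91 ± 0.10). Of 9 H4 genes 6 lay below and 3 above. Hist1h4d (30792 and 28601 against 10808 and 14707 counts, 0.71 ± 0.07) and Hist2h4 (24270 and 25438 against 10033 and 12974, 0.83 ± 0.08) were above, with Hist1h4i. Hist1h4h had 22972 and 24061 against 4302 and 5896 counts (-0.28 ± 0.06). Its call was lost with RLE scaling (-0.04, edgeR adjusted p = 0.677).

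**Figure D5:**
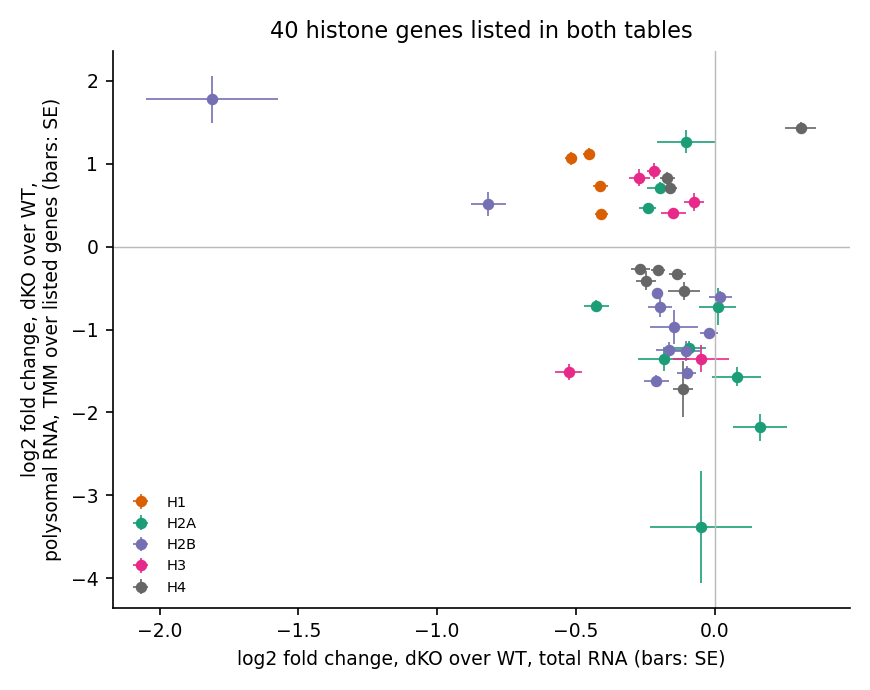
Log2 fold change of dKO over WT in polysomal RNA, scaled by TMM over the listed genes (y axis), against that in total RNA (x axis), for the 40 members in both tables, with SE bars. The 4 H1 genes are left of 0 in total RNA and above 0 in polysomal RNA; no member lies at 0 on the y axis.

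Annotated transcripts of members on the 2 sides overlapped in GC content and length, with different medians that were not tested. Those of the 24 below had a median GC content of 59.1% (range 45.6% to 69.0%) and a median length of 486.5 bases (312 to 2506). The 16 above had 52.7% (39.8% to 66.9%) and 987 bases (411 to 7425). Over all 5572 genes with a value, the polysomal log2 fold change and GC content had a Spearman rho of 0.764, while over the 40 members it was -0.469. For total RNA, rho was -0.0876 (14039 genes). These points share libraries and base composition, and the part of either in the result was not tested. With an offset for GC content, 26 members were called lower and 12 higher.

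The genotype difference in polysomal RNA was set against that in total RNA by an interaction term over the 5768 genes in both tables. It was called lower for 45.8% of them and higher for 43.7%, 89.5% in all. Of the 40 members, 20 were lower, 16 higher and 4 not called, a share near that background. The 4 H1 genes were among those higher, with a class median of 1.39. Class medians were -0.90 in H2A, -0.78 in H2B, 0.62 in H3 and -0.036 in H4. The H4 value turned to 0.092 with RLE scaling, which moved the median of all genes by 0.12. With an offset for GC content, the medians were 0.92 in H1, -1.96 in H2A, -1.51 in H2B, -0.50 in H3, which turned its sign, and -0.42 in H4.

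Polysomal and total RNA were also compared within WT. The listed genes leave an empty interval in the genotype ratio, so the set compared here, and its level of 0, cannot be taken as independent of genotype. Relative to the genes in both tables, 16 of 40 members were higher in polysomal than in total RNA, 1 was lower and 23 did not pass. Over all genes 3.47% were called higher and 8.48% lower, 11.9% in all. The median member stood at 0.20 on the log2 scale, against -0.0033 over all genes. Hist2h2bb was higher by 0.54 ± 0.03 on the log2 scale, Hist2h4 by 0.46 ± 0.06, Hist3h2a by 0.43 ± 0.04 and Hist1h4d by 0.40 ± 0.06. Among H1 genes, Hist1h1d stood at 0.45 ± 0.04, Hist1h1a at 0.33 ± 0.05, Hist1h1c at 0.28 ± 0.06 and Hist1h1e at 0.01 ± 0.04, the last not called. Hist1h1c lost its call in each of the 4 fits without a WT library (edgeR adjusted p from 0.0837 to 0.131). Hist1h1a lost it without total RNA replicate 2 (0.0754) and without polysomal replicate 1 (0.0592). The 1 lower member was Hist1h3d, at -0.49 ± 0.10. The count of lower members was 0 without total RNA replicate 1 and without polysomal replicate 1. Leaving out a WT library cut the count of higher members to between 7 and 10. It was 10 without total RNA replicate 1, 7 without total RNA replicate 2, 9 without polysomal replicate 1 and 8 without polysomal replicate 2.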

How the data were processed

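The deposited files hold raw read counts by gene symbol, in a table for total and a table for polysomal RNA. Per the submitters' processing notes, FastQC, TopHat and HTSeq were used, and GRCm38, mm10 and mm9 are named with no role. Versions, annotation, strand setting and the treatment of reads with several matches are not stated there. Libraries were strand-specific (NEBNext Ultra Directional), from Trizol RNA, per the labels.

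Members and supporting lists were chosen with earlier results of these data known. Counts were tested with edgeR 4.0.16 in R 4.3.3 (quasi-likelihood F test, TMM, filterByExpr), with Benjamini-Hochberg adjustment over all genes tested and a threshold of 0.05. Genotypes were compared within each table (4 libraries); all 8 libraries entered the fit for the interaction and for polysomal against total WT RNA. SE is the absolute log2 fold change over the square root of F. The script was tested on simulated counts, where it recovered 199 of 200 genes changed 2-fold in total RNA and called 13 unchanged ones. All genes were simulated with the same spread, and the changed ones were drawn only from genes above a minimum mean count. Smaller changes, changes at low counts and discordant replicates were thus not covered. Replicates differed by more than counting error, with chi-square per degree of freedom from 2.9 to 25, the highest in dKO polysomal RNA.

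Named members were, in each class, the 3 with the highest mean CPM, up to 12 called in each direction by size of change, up to 10 by polysomal count and each with a library over 2 times or under 0.5 times the other 3. Hist1h1t, Hist1h2ah, Hist1h2bc, Hist1h3a, Hist2h2ab, Hist2h2ac, Hist4h4 and the genes whose sequences are printed beside these were named after their values were seen. In each supporting list up to 4 genes with the smallest adjusted p were named. DESeq2 1.42.0, other scalings, no filter, a GC offset (loess span 0.5), the replicate number as a block and each library left out were the alternatives. Each column total limits precision, and no sample column was left unused. Series text speaks of 3 groups, while the labels give 4.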

Additional observations from a re-analysis of the deposited data

Results flagged for a closer look

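For 9 of the 10 members with the most polysomal counts, the genotype difference in polysomal RNA differed from that in total RNA by a test of the interaction, with an edgeR adjusted p under 0.05. On the log2 scale the difference was 1.62 for Hist1h1a, 1.61 for Hist1h1c, 1.18 for Hist1h1d and 0.83 for Hist1h1e. It was 1.16 for Hist1h3e, 1.03 for Hist2h4, 0.91 for Hist1h4d, 0.75 for Hist3h2a and -0.31 for Hist2h2bb. The same test was passed by 89.5% of the genes in both tables, and the level of 0 depends on the genes that the polysomal table lists.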

How the results depend on the processing

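The count of members lower in total RNA ranged from 27 (DESeq2) to 35 over all alternatives and from 29 to 32 with a library left out. The count of higher members ranged from 2 to 5 with a library left out. DESeq2 called 2944 genes in total RNA against 4485 by edgeR. With a library left out, Hist1h2ak ranged from -1.05 to 0.51 (0.20 without dKO replicate 1, 0.51 without WT replicate 2), and Hist1h2bp from -2.59 to 0.04 (0.038 without WT replicate 1). A factor of 1.5 in place of 2 gave 4 members with a library apart. With the GC offset the H3 median became -0.65 in polysomal RNA and -0.50 in the interaction. The H4 interaction median became 0.092 with RLE scaling and 0.091 with DESeq2, and ranged from -0.085 to 0.032 with a library left out, positive without dKO polysomal replicate 2. In WT, polysomal against total RNA, the H3 median ranged from -0.026 (without total RNA replicate 1) to 0.047, and was -0.0091 without polysomal replicate 2. There, leaving out a library gave 7 to 10 higher and 0 to 1 lower members. The cause was not tested. Of the 25 members named for total RNA, 19 kept their direction and call with DESeq2 and 22 with the robust estimate.

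Across genes, deviations of same-numbered libraries correlated at -0.041 in total RNA and 0.061 in polysomal RNA. Across fractions they correlated at -0.027 in WT and 0.038 in dKO. Such values over all genes cannot exclude a pairing that touches few genes. Hist1h2ak and Hist1h2bc did split by replicate number in both genotypes. With the replicate number as a block, 34 members were lower and 2 higher in total RNA, 24 and 16 in polysomal RNA, 21 and 16 in the interaction, and 15 higher and 1 lower in polysomal than in total WT RNA. Under 50% unique windows were found in 24 members, in 21 with windows of 75 bases, and in 21 when overlapping genes were not counted. With 2 libraries a group and part of the polysomal genes listed, small differences may be missed.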
